A study of Homo sapiens with 4 samples.

Results

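The regions described here are the chromatin anchors that SW620 and HCT116 cells shared in H3K27ac HiChIP. An anchor is one end of a loop, that is, one of 2 separate segments of a chromosome joined by paired-end tags (PETs). An anchor of one line was matched to an anchor of the other where their overlap covered at least 50% of both, 1 to 1 and by the largest overlap. This gave 9452 matched anchors, out of 18501 anchors in HCT116 (51.1%) and 22207 in SW620 (42.6%), and out of 67289 anchors counted over the 4 libraries of the series. Both lines are human colorectal cancer cell lines from ATCC, listed with the disease colorectal carcinoma and left untreated, and each was represented by 1 library. HCT116 and SW620 are epithelial lines, SW620 having been established from a lymph node metastasis. With 1 library per line no difference had a replicate check, and every interval below is an exact 95% interval that covers counting error only.

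Acetylation of histone H3 at lysine 27 marks active promoters and enhancers. HiChIP ligates DNA segments that lie close together in fixed nuclei and then enriches the ligated fragments for this mark, so a loop count depends both on contact and on acetylation at its ends. In colorectal cells the WNT pathway holds much of the interest, because its feedback genes and its targets mark crypt cells and respond to beta-catenin with TCF/LEF factors, while receptor ligands of the EGFR family, ERK feedback genes and p53 targets report on other routes of growth control.

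The filtered tables held 81579 PETs in HCT116 and 152421 in SW620, of which 64234 (78.7%) and 113502 (74.5%) lay in loops with at least 1 matched anchor. Rates are given per 1000000 PETs of this kind, so that 1 PET stood for 15.6 in HCT116 and 8.81 in SW620. Before filtering the lines were closer, with 956460 PETs within a chromosome in HCT116 and 1016377 in SW620. Of these 863041 and 844521 were pairs of an anchor with itself. The larger filtered count of SW620 thus does not stand for a library larger to the same degree, and its cause was not tested. A matched anchor held at least 1 PET in each line by its definition, and the medians were 6 PETs in HCT116 and 10 in SW620. The anchor intervals of HCT116 were largely shared with another library: 17823 of the 18501 (96.3%) were identical to anchors of the LS513 library, and so were 9288 (98.3%) of the matched ones, against 1352 identical in HCT116 and SW620. The PET counts differed: of the 25289 loops with identical ends in HCT116 and LS513, 28.7% had equal PETs. The part that this shared set of intervals played in the comparison was not tested. Marker genes of epithelial cells lay at matched anchors in both lines: EPCAM, a surface adhesion molecule, held 16 PETs in HCT116 and 44 in SW620, KRT8 held 127 and 167, KRT18 held 83 and 104, and VIL1, a brush border protein, held 11 and 22. Of the other markers fixed for this check, CDH1 and CDX2 had anchors in both lines that were not matched, and KRT19 and CDH17 had an anchor in HCT116 only. KRT20, CEACAM5 and CEACAM6, colonocyte genes on the lists used below, had an anchor in neither line.

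The promoters of 6 genes that the comparison turned on are printed here, 4 with more loop PETs in SW620 and 2 with fewer. The shared intervals of the DNMBP and EREG anchors lie 1.2 and 5.2 kb from the start, so for these the printed run is outside the shared interval. The first 3 stood at anchors of WNT targets or of a nuclear receptor, MACC1 and DNMBP were among the anchors with the largest differences, and EREG encodes an EGFR ligand. Each run is 300 bases, from 250 before to 50 after the gene's start, from RefSeq on GRCh38.p14. Capitals mark CTTTGA or its reverse complement TCAAAG, the core letters bound by TCF/LEF factors, and TGANTCA, the core letters bound by AP-1, on either strand.
SP5: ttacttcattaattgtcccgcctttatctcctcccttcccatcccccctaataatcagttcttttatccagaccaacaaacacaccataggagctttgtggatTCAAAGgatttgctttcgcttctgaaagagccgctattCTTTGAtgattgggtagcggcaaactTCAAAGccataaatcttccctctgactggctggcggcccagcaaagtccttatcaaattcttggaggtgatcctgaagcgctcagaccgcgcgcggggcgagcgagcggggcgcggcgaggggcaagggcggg
NR2F1: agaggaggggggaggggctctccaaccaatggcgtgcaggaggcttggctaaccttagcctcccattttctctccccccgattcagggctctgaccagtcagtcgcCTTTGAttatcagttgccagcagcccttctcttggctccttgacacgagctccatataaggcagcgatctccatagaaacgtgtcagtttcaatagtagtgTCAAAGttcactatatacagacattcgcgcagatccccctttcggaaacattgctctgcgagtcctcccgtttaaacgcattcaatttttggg
EPHB3: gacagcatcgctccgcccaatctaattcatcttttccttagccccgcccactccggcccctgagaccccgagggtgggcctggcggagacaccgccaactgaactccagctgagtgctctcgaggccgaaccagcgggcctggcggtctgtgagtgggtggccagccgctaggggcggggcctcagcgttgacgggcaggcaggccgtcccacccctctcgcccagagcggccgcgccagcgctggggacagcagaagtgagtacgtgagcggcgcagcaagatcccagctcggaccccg
MACC1: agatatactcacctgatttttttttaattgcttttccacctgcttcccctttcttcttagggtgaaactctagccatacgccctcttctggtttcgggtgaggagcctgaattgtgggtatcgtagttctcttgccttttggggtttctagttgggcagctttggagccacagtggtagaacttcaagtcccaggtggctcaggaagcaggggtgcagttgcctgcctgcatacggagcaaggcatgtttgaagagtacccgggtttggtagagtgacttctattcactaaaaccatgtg
DNMBP: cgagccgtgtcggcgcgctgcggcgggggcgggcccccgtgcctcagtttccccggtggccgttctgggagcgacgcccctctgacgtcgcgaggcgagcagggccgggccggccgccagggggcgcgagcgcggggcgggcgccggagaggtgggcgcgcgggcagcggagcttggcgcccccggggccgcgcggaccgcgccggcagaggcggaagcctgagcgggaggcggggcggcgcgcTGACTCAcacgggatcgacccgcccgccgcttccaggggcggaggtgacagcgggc
EREG: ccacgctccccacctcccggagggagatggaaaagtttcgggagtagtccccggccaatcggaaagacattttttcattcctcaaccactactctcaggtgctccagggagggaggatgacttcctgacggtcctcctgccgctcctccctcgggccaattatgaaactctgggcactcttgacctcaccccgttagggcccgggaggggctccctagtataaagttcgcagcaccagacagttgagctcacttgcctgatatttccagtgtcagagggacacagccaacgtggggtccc
The SP5 promoter held 3 TCF/LEF matches and that of NR2F1 held 2, while EPHB3, MACC1, DNMBP and EREG held 0. Of 27305 promoters of the same length, 13.1% held this match. DNMBP held 1 match of the AP-1 letters, and 7.76% of all promoters held them. A match describes letters in these windows and does not show binding.

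Loop PETs differed at some of the matched anchors, in both directions. An anchor was called when its rate differed at least 2-fold, the interval of the ratio left out 1 and the higher line held at least 10 PETs. Of 5089 anchors with at least 10 PETs in either line, 574 (11.3%) were higher in SW620 and 543 (10.7%) were lower. The median log2 ratio over those 5089 anchors was 0.18. The 9452 matched anchors spanned a like length in both lines, with medians of 4852 bp in HCT116 and 4492 bp in SW620, but the higher anchors were longer in SW620 (7728 against 6136 bp) and the lower anchors were longer in HCT116 (6481 against 5280 bp). The part of length in these calls was not tested, and with PETs counted per kb of anchor 522 were higher and 463 lower. Counting only loops whose both anchors were matched, 270 were higher and 271 lower of 3316. With a minimum of 20 PETs the directions were less even, with 474 higher and 278 lower of 2621. The balance of directions turned with the scale. With rates scaled to all filtered PETs, 476 were higher and 633 lower of 5089. Scaled to the PETs of the same chromosome, 515 were higher and 530 lower.

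**Figure D1:**
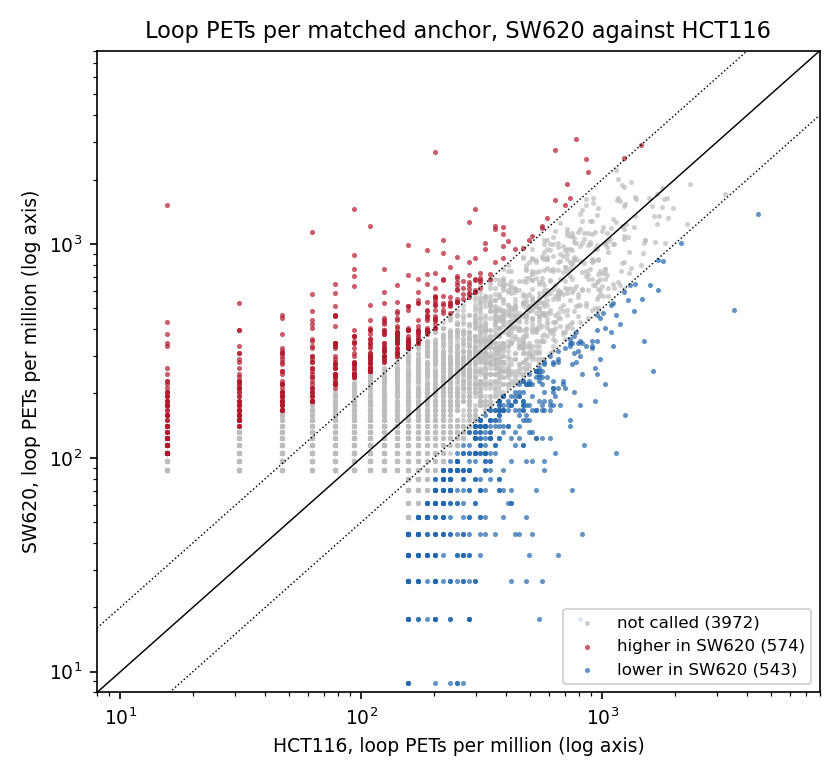
Loop PETs per 1000000 in HCT116 (x axis, log scale) and in SW620 (y axis, log scale) for the 5089 matched anchors with at least 10 PETs in either line, 1 point an anchor. The solid line marks equal rates and the dotted lines a 2-fold difference. The 574 higher anchors (red) and the 543 lower anchors (blue) lie on both sides of a broad band of anchors that were not called.

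The 10 anchors with the largest differences towards SW620, ranked by the lower bound of the ratio, included ones near NKD2 and NKD1, beside FOXQ1 and at the starts of UPK3B, SNTB1 and MACC1. The first was on chromosome 5, chr5:953543-966572 (hg19), 42.4 kb from the start of NKD2, whose product restrains WNT signals by binding Dishevelled. It held 1 PET in HCT116 (15.6 per 1000000) and 172 in SW620 (1515 per 1000000). The ratio was 97.3 (interval 17.2 to 3867). SW620 joined it to 15 partners and HCT116 to 1. The second lay 38.8 kb from the start of NKD1, the paralogue of NKD2 and a WNT-induced feedback gene, at chr16:50533769-50543435. Its PETs were 13 in HCT116 and 304 in SW620, a ratio of 13.2 (7.62 to 25.1), yet its partners numbered 5 and 8. One partner, at chr16:50477903-50516519, took 148 of the 304 PETs. Here and below genes were named from lists of limited length, and a gene outside the lists can start closer to an anchor than the one named.

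An anchor that held the start of MACC1 (chr7:20253231-20262229), a transcriptional regulator of MET studied for its link to metastasis of colon cancer, held 1 PET in HCT116 and 39 in SW620. The ratio was 22.1 (3.73 to 894). The start of MET itself, the receptor of hepatocyte growth factor, was at a matched anchor that held 2 PETs in HCT116 and 24 in SW620, a ratio of 6.79 (1.69 to 59.3). Beside FOXQ1, a forkhead factor gene, the anchor at chr6:1320827-1327053 held 6 PETs in HCT116 and 101 in SW620, a ratio of 9.53 (4.23 to 26.6). In SW620 41 of the 101 PETs ran to the anchor that holds the FOXQ1 start, where HCT116 had 2.

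The other named anchors of this direction were on chromosomes 1, 7, 8, 15 and 20. An anchor inside PRDM16, which encodes a zinc finger regulator, held 7 PETs in HCT116 and 137 in SW620 (11.1-fold). One at the start of SNTB1, a syntrophin gene, held 1 and 49, and one 18.2 kb from the start of ATP10A, a phospholipid flippase gene, held 2 and 60. On chromosome 20 an anchor 415 kb from the nearest listed start, that of PMEPA1, held 6 and 165, and another, 66.5 kb from the start of SLCO4A1, held 1 and 43. All 5 had more PETs in SW620 by at least 11.1-fold, and the lower bound of the least certain ratio was 4.14.

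A single partner carried nearly all the PETs at the start of UPK3B, a uroplakin gene. That anchor (chr7:76138432-76146402) held 4 PETs in HCT116 and 129 in SW620, a ratio of 18.3 (6.96 to 68.0). In SW620 123 of the 129 PETs ran to chr7:76633256-76637272, 493 kb away, where the anchor itself held 6 self pairs. Pairs of the UPK3B anchor with itself did not differ in this way, with 56 in HCT116 and 44 in SW620. A pseudogene of UPK3B lies on the same chromosome, and reads of near-identical copies may be placed at either, so this value is uncertain.

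Towards HCT116 the largest difference lay in DNMBP, a guanine nucleotide exchange factor of CDC42. The anchor chr10:101764579-101768460, 1.2 kb from its start, held 52 PETs in HCT116 and 2 in SW620, 45.9-fold lower in SW620 (interval 12.1 to 389). Next was the start of MZT2A, a component of the gamma-tubulin complex, with 35 PETs in HCT116 and 2 in SW620. All of them ran to the start of MZT2B, its close copy 1312 kb away, so placement of reads between the copies is uncertain here too. An anchor at chr4:75581387-75592869 lies among the genes of EGFR ligands, 127 kb from the start of BTC (betacellulin). It held 53 PETs in HCT116 and 5 in SW620, 18.7-fold lower (7.54 to 60.0), and 11 of the 53 ran to the anchor in EREG, to which SW620 had 0.

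The deepest anchor of this set was at chr1:8267726-8282782, 181 kb from the nearest listed start, that of ERRFI1, which encodes a feedback inhibitor of EGFR. It held 227 PETs in HCT116 (3534 per 1000000) and 56 in SW620 (493 per 1000000). The rate was 7.16-fold lower in SW620 (5.33 to 9.78). The leading partner in HCT116, 42.3 kb from the ERRFI1 start, took 40 PETs. An anchor in MRVI1 held 42 in HCT116 and 4 in SW620, one 13.6 kb from SP1, a zinc finger factor gene, held 31 and 3, and one at the start of ZNF324 held 27 and 3. The remaining named anchors, near FAT1, SLC1A4 and YWHAZ but over 70 kb from each start, were 10.6-fold to 21.2-fold lower in SW620.

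These values rested largely on partners that were not themselves matched. In SW620 the leading partner was matched for 2 of the 10 higher anchors, overlapped an anchor of HCT116 by less than the rule asks for in 3 and had no overlapping anchor in 5. In HCT116 the leading partner of the lower anchors was matched for 3, overlapping for 4 and without overlap for 3. Counted over loops with both anchors matched, 2 of the 10 higher and 5 of the 10 lower anchors were still called. The anchor near FOXQ1 then held 5 PETs in HCT116 and 86 in SW620, and that near NKD1 0 and 2.

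Single loops whose both ends were matched could be compared directly. Of 14492 such loops in HCT116 and 18979 in SW620, 8300 were in both lines, which is 57.3% of the first and 43.7% of the second, and these held 75.1% and 68.9% of the PETs. Many loops rested on little: of those with at least 1 matched anchor, 66.6% in HCT116 and 61.6% in SW620 held a single PET. Among loops of at least 10 PETs, 98.7% of 309 in HCT116 had PETs in SW620 and 96.3% of 788 in SW620 had PETs in HCT116. Of 871 loops with at least 10 PETs in either line, 126 (14.5%) were higher in SW620 and 85 (9.76%) were lower. Over loops with the authors' FDR under 0.01 these counts were 193 and 75 of 603. Here too a minimum of 10 PETs was a lower rate in SW620, and its part in the counts was not tested. Calls on loops and on anchors went together in part: 98 of the 126 higher loops had at least 1 end called higher, and 71 of the 85 lower loops at least 1 end called lower. The median spans were 33.5 kb for the higher, 36.1 kb for the lower and 34.2 kb for all those compared.

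The loop of AXIN2 was the deepest of those named. AXIN2 encodes a scaffold of the beta-catenin destruction complex and is itself a WNT target. Its start was joined to an anchor 14.1 kb off (chr17:63571905-63594479) by 16 PETs in HCT116 (537 per 1000000 PETs in loops with both ends matched) and 137 in SW620 (2711), a ratio of 5.05 (3.003 to 9.09). A longer loop of the same start, over 190 kb, held 0 PETs in HCT116 and 20 in SW620. The FOXQ1 loop and a loop from the start of ADRA2C, an adrenergic receptor gene, each held 2 PETs in HCT116 and 41 in SW620, 12.1-fold higher (3.14 to 103). A loop 6.7 kb from the start of JADE2 held 0 and 23, at least 4.52-fold higher with 3 counts in place of 0, and one 49.9 kb from CDKN3 held 0 and 21, at least 4.13-fold. The loop between the neighbours EIF4A1, a translation helicase gene, and CD68, a lysosomal glycoprotein gene, held 1 PET in HCT116 and 28 in SW620.

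Of the loops lower in SW620, MZT2B to MZT2A held 35 PETs in HCT116 and 2 in SW620. The loop from CRABP2, a retinoic acid carrier gene, to an anchor 14.5 kb away held 26 and 4, 11.01-fold lower (3.82 to 43.4). The other 4 had 0 PETs in SW620, beside 12 in HCT116 for a loop 18.4 kb from the start of ELF3, an epithelial ETS factor gene, and 11 each for loops at KAZALD1, in CLIP1 and from the anchor in EREG, 5.2 kb from its start, to the anchor near BTC. With 3 counts in place of 0 they were at least 6.78-fold (ELF3) and at least 6.21-fold lower.

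The gene lists put these anchors in order of role. Lists covered 157 genes, of which 90 started in, or within 5 kb of, the anchor of either line in a matched pair, which can reach beyond the shared interval, and 80 of these had at least 10 PETs in either line. Among the 80, 18 were higher and 4 lower in SW620, where 11.3% and 10.7% of all compared anchors were, with a median log2 ratio of 0.28, beside the 0.18 over all 5089 anchors compared. The lists were chosen with results of these data in view, and no list was tested as a set.

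**Figure D2:**
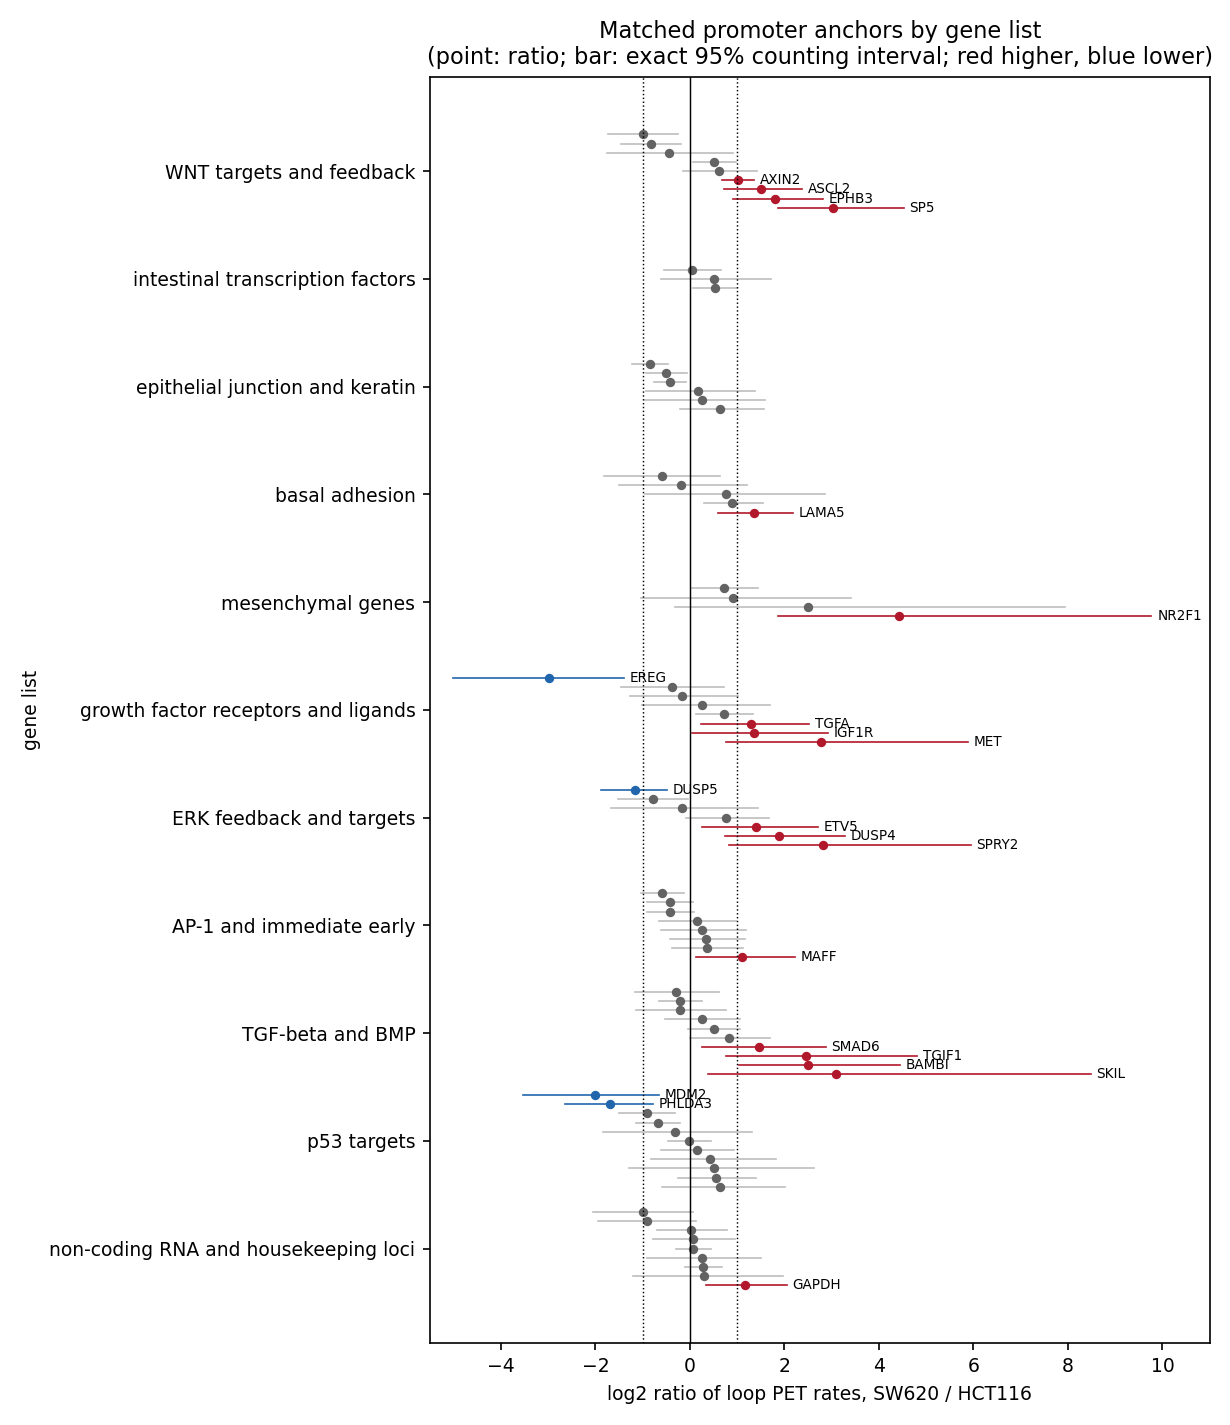
Log2 ratio of loop PET rates, SW620 over HCT116 (x axis), for the 80 matched promoter anchors with at least 10 PETs in either line, grouped by gene list (y axis). Points are ratios, bars exact 95% counting intervals, and dotted lines a 2-fold difference; the 18 named red genes were higher in SW620 and the 4 named blue genes lower, and many bars are wide because HCT116 held under 10 PETs.

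WNT targets and feedback genes were higher at 4 of 9 promoters and lower at 0, with a median log2 ratio of 0.61. Over all compared anchors 11.3% were higher and 10.7% lower, with a median of 0.18, and a list of 9 is short. SP5, a transcription factor and direct WNT target whose promoter is printed above, held 6 PETs in HCT116 and 87 in SW620, a ratio of 8.21 (3.62 to 22.97). EPHB3, a crypt Ephrin receptor, held 12 and 74 (3.49, interval 1.88 to 7.06), and ASCL2, a regulator of intestinal stem cells, held 16 and 80 (2.83, interval 1.64 to 5.19). AXIN2 held 93 and 331, a ratio of 2.01 (1.60 to 2.56), just over the fold asked for, and with rates per 1000000 PETs of its own chromosome it was 1.91 and not called. CCND1, a cyclin gene, held 58 and 146 (1.42, interval 1.04 to 1.97), TCF7L2, the main TCF factor of the gut, held 44 and 44 (0.57, interval 0.36 to 0.88), and SOX9, a crypt transcription factor gene, held 35 and 31 (0.50, interval 0.30 to 0.84). SOX9 was called lower, at 2.10-fold, when scaled by chromosome. Over loops with both anchors matched EPHB3 held 3 and 9 and was not called. Members of this list thus lay on both sides of equal rates.

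Receptors and ligands of growth factors divided. MET (above), IGF1R with 6 PETs in HCT116 and 27 in SW620 (2.55, interval 1.03 to 7.54) and TGFA, an EGFR ligand, with 9 and 39 (2.45, interval 1.17 to 5.76) were higher. EREG, another ligand of the same receptor, held 18 and 4, a ratio of 0.13 (0.03 to 0.38), and was lower. In HCT116 11 of the 18 PETs at EREG ran to the anchor near BTC. ERBB3, a receptor of neuregulins, held 32 and 93 (1.64, interval 1.09 to 2.54) and was not called, nor was ERBB2 with 14 and 19.

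Of the ERK feedback genes, 3 of 7 were higher and 1 was lower, beside 11.3% and 10.7% of all compared anchors. A list of 7 is short. SPRY2, an inhibitor of receptor tyrosine kinase signals, held 2 PETs in HCT116 and 25 in SW620 (7.07, interval 1.76 to 61.6), DUSP4, a phosphatase of ERK, held 7 and 46 (3.72, interval 1.67 to 9.76), and ETV5, an ETS factor gene induced by ERK, held 8 and 37 (2.62, interval 1.20 to 6.51). DUSP5, likewise an ERK phosphatase, held 42 and 33 and was lower (0.44, interval 0.27 to 0.72). One loop over 94.5 kb held 26 PETs in HCT116 and 13 in SW620. SPRY4 held 33 and 34 (0.58, interval 0.35 to 0.97) and was not called. Over loops with both anchors matched none of the 3 higher promoters was called, and the direction of DUSP4 turned, with 6 PETs in each line (ratio 0.59).

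On the list of TGF-beta and BMP genes, 4 of 10 promoters were higher and 0 lower, beside 11.3% and 10.7% of all compared anchors. A list of 10 is short. BAMBI, a pseudoreceptor, held 4 PETs in HCT116 and 40 in SW620 (5.66, interval 2.05 to 21.8). TGIF1, a SMAD corepressor, held 3 and 29 (5.47, interval 1.70 to 28.1), SKIL, another, held 1 and 15 (8.49, interval 1.31 to 357), and SMAD6, an inhibitory SMAD, held 7 and 34 (2.75, interval 1.20 to 7.35). SMAD7, also inhibitory, held 20 and 29 (0.82, interval 0.45 to 1.53). Over loops with both anchors matched TGIF1 was still called, while BAMBI (1 and 7), SMAD6 (2 and 4) and SKIL (1 and 2) were not. ID1, a BMP target, held 68 and 104, SMAD3 40 and 100, and none of the 3 was called.

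Of 11 promoters of p53 targets 0 were higher and 2 lower, with a median log2 ratio of -0.02. At the shares of all compared anchors, 11.3% higher and 10.7% lower, few of 11 would be called either way. MDM2, which encodes the ubiquitin ligase of p53, held 16 PETs in HCT116 and 7 in SW620 (0.25, interval 0.09 to 0.64), and PHLDA3, an inhibitor of AKT, held 31 and 17 (0.31, interval 0.16 to 0.58). Over loops with both anchors matched neither was called, and PHLDA3 turned, with 4 and 8 (ratio 1.18). GDF15, a secreted stress factor gene, held 77 and 85 (0.62, interval 0.45 to 0.86), PLK3 66 and 115 (0.99, interval 0.72 to 1.36) and BBC3, a proapoptotic gene, 52 and 49 (0.53, interval 0.35 to 0.80). None of these 3 passed the 2-fold rule.

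Keratin and junction promoters were not called in either direction, 0 of 6 each way, although KRT8 (0.74, interval 0.59 to 0.94), KRT18 (0.71, interval 0.53 to 0.96) and CLDN4, a claudin gene (0.56, interval 0.43 to 0.73), had intervals below 1. With 11.3% of all compared anchors higher and 10.7% lower, few members of lists this short would be called. Of 4 mesenchymal promoters, NR2F1, a nuclear receptor gene, was higher, with 1 PET in HCT116 and 38 in SW620 (21.5, interval 3.63 to 871). VIM, the intermediate filament of mesenchymal cells, held 1 and 10 (5.66, interval 0.81 to 246), an interval that includes equal rates. LAMA5, a laminin chain gene, held 18 and 81 (2.55, interval 1.51 to 4.51), and 1.90 when scaled by chromosome, which was not called. MAFF, a small MAF factor gene, was the 1 member called of 8 immediate early promoters, with 11 and 42. GAPDH, a housekeeping gene, held 16 and 63 (2.23, interval 1.27 to 4.13), while ACTB held 26 and 47 (1.02, interval 0.62 to 1.72), MALAT1 100 and 186 (1.05, interval 0.82 to 1.36) and NEAT1 79 and 170 (1.22, interval 0.93 to 1.61). Scaled by chromosome, AXL, a receptor kinase gene, was called higher (2.19) and RPLP0, a ribosomal protein gene, lower (2.11-fold).

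The promoter calls also leaned on unmatched partners. Over loops with both anchors matched, a count added after the data were seen, 6 of the 18 higher and 2 of the 4 lower promoters were called as before. SP5, AXIN2, ASCL2, LAMA5, TGIF1 and GAPDH were the 6, and EREG and DUSP5 the 2. MET then held 1 PET in HCT116 and 3 in SW620, NR2F1 0 and 0, SPRY2 0 and 2, and MDM2 8 and 6. By this count ITGB4 (18 and 95) and ERBB3 (15 and 57) were called higher, and TCF7L2 (11 and 4), LAMA3 (11 and 5) and SPRY4 (29 and 24) lower.

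The number of partners was compared over anchors deep enough to count them. Over 2616 anchors with at least 10 PETs in both lines the median was 9 partners in HCT116 and 11 in SW620 as counted, or 140 and 96.9 per 1000000 PETs. Reduced to the PETs of HCT116 by exact calculation, SW620 had a median of 8.04. At that equal depth the matched anchors took part in 32487 loops in HCT116 and 31955 in SW620. Before this reduction 66.6% of the loops at matched anchors in HCT116 and 61.6% in SW620 held 1 PET, so many partners rested on 1 PET. At least 2-fold more partners in SW620 were found at 75 anchors (2.87%) and at least 2-fold fewer at 155 (5.93%). The direction turned with the loops counted: loops of at least 2 PETs gave 228 with more and 72 with fewer, and loops with the authors' FDR under 0.01 gave 153 and 69. The 160 anchors with higher PETs among the 2616 had a median log2 partner ratio of 0.70 and the 296 with lower PETs one of -0.79, but with each anchor reduced to its own smaller PET count both medians were close to 0 (0.0019 and 0.031).

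The anchors with the largest gains in partners, among those with at least 20 PETs in both lines, held the starts of BCAR1, an adaptor of integrin signals, with 6 partners in HCT116 and 23 in SW620 (3.20-fold at equal depth), and TEAD1, the partner factor of YAP, with 4 and 16 (2.75-fold). Others were in TBC1D16, with 11 and 40 (2.67-fold), and 31.0 kb from EHF, with 3 and 11 (2.64-fold). The last lay 202 kb from the nearest listed start, that of TSC22D1, with 3 and 9 (2.44-fold). PETs were also called higher at BCAR1 (21 and 115, ratio 3.10) and TBC1D16 (50 and 350, ratio 3.96), and not at TEAD1 (25 and 69) or near TSC22D1 (22 and 59). The anchor near EHF held 23 PETs in HCT116 and 33 in SW620 (ratio 0.81, interval 0.46 to 1.45). Fewer partners in SW620 were found 2.0 kb from the start of PLAUR, the urokinase receptor gene, with 20 in HCT116 and 8 in SW620 (3.51-fold fewer), at FOXA3, a forkhead factor gene of the gut, with 12 and 4 (3.29-fold), at SSNA1 with 22 and 9 (3.02-fold), at G6PC3 with 20 and 9 (2.85-fold) and 73.2 kb from ARID1A with 8 and 4 (2.72-fold). PETs were also called lower near PLAUR (43 and 20, ratio 0.26) and at SSNA1 (61 and 45, ratio 0.42), and not at G6PC3 (33 and 33) or near ARID1A (20 and 23). FOXA3 had 38 PETs in HCT116 and 69 in SW620 (ratio 1.03, interval 0.68 to 1.57).

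**Figure D3:**
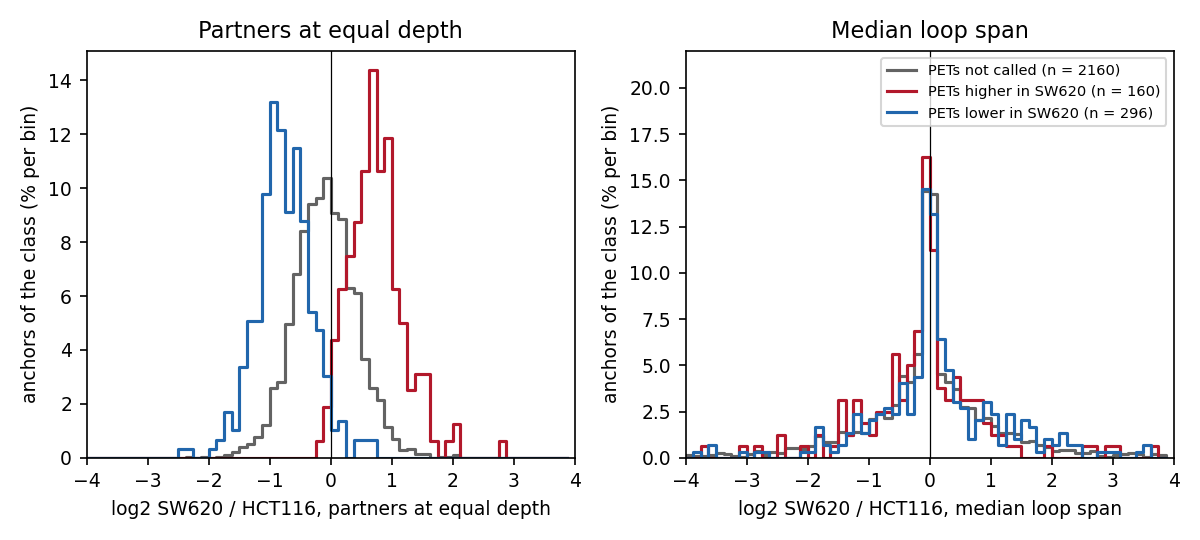
Distributions over the 2616 matched anchors with at least 10 PETs in both lines of the log2 ratio SW620 over HCT116 for partners at equal depth (left) and for the PET-weighted median loop span (right). The y axes give the percent of each class of anchors per bin, with 2160 anchors not called on PETs (grey), 160 higher (red) and 296 lower (blue); the medians of higher and lower anchors are 0.70 and -0.79 for partners and -0.02 and 0.02 for span.

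Loop span per anchor had nearly equal medians in the lines. The median over anchors of the PET-weighted median span was 63.3 kb in HCT116 and 63.5 kb in SW620, and 41.8% and 41.5% of the PETs spanned over 100 kb. A 2-fold longer span in SW620 was found at 338 anchors (12.9%) and a 2-fold shorter one at 341 (13%), and 123 of these anchors were also called on PETs. With each loop counted once in place of each PET, 417 were longer and 219 shorter. The 296 anchors with lower PETs in SW620 had a longer span in 17.6% and a shorter one in 11.5%, and of the 160 with higher PETs 13 had a longer and 24 a shorter span.

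Of the 10 anchors with the largest span differences, 5 held the start of a listed gene. Around NQO1, a quinone reductase gene, the median span was 14.3 kb in HCT116 and 160 kb in SW620, an 11.2-fold difference on 24 and 56 PETs. ADGRE5, an adhesion receptor gene, went from 36.3 to 393 kb, PTP4A2, a phosphatase gene, from 16.6 to 170 kb and ING1, a chromatin reader gene, from 9.02 to 91.5 kb. In the other direction the span at TRIP10, a CDC42 effector gene, was 223 kb in HCT116 and 12.3 kb in SW620, an 18.2-fold difference on 26 and 69 PETs. Anchors 10.6 kb from LBR and 15.8 kb from ZFP36L1 went from 330 to 20.8 kb and from 571 to 37.3 kb. PET rates differed by less than 2-fold at each of the 10, which also include anchors in SSTR5 (13.9 and 137 kb), 248 kb from ANKRD11 (328 and 23.8 kb) and 3.7 kb from GDF11 (192 and 14.7 kb).

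Pairs of an anchor with itself give a separate count at each matched anchor, one that needs no second anchor. They numbered 490880 in HCT116 and 445676 in SW620, with medians of 31 and 20 per matched anchor. Of 7846 anchors with at least 10 self PETs in either line, 645 (8.22%) were higher in SW620 by the same rule and 1763 (22.5%) were lower. Among the 574 anchors with higher loop PETs, self PETs were higher at 198 and lower at 15, and among the 543 with lower loop PETs they were lower at 269 and higher at 2. Across 5007 anchors with both kinds of PET in both lines, the log2 ratios had a Pearson r of 0.49 and a Spearman rho of 0.47, a description over anchors that share 2 libraries and their depths. Both kinds were counted in each line's own anchor interval and not scaled by its length. The higher anchors were longer in SW620 and the lower ones in HCT116, and the part of length here was not tested.

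Individual anchors fell into both kinds. Beside NKD1 the self PETs numbered 12 in HCT116 and 127 in SW620 (11.7-fold) and in the anchor near ATP10A 9 and 244 (29.9-fold), so both counts were higher. At SNTB1 they numbered 81 and 144 (1.96-fold), beside a 27.7-fold difference in loop PETs. At SPRY2 they were 136 and 268, at MET 74 and 76 and at MDM2 64 and 38.

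**Figure D4:**
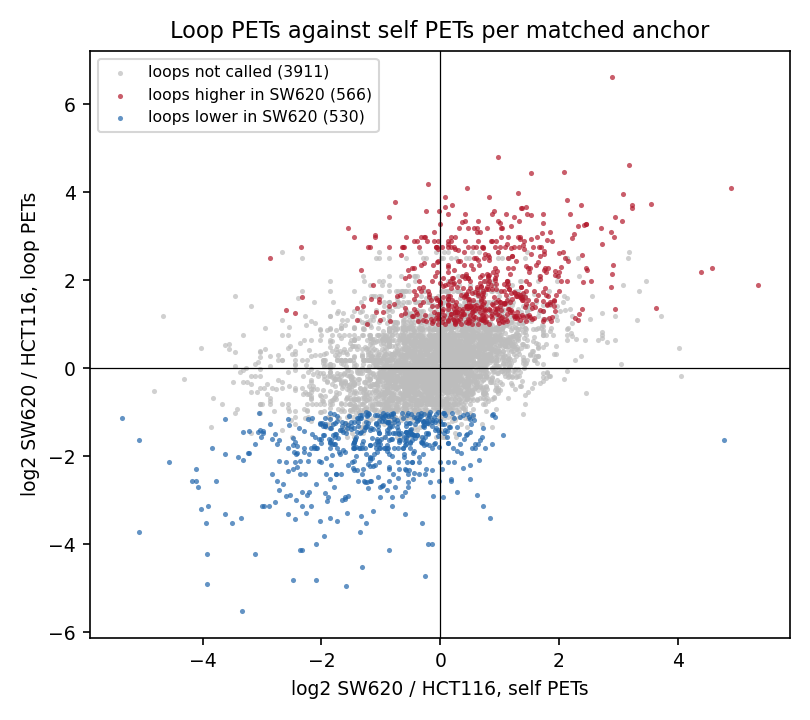
Log2 ratio SW620 over HCT116 of loop PETs (y axis) against that of self PETs (x axis) for 5007 matched anchors with both kinds in both lines, 1 point an anchor, with anchors higher on loop PETs in red, lower in blue and not called in grey. The median self ratio is 1.65 over all 574 higher anchors and 0.48 over all 543 lower anchors, drawn or not, and Pearson's r over all points is 0.49.

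Calls were unevenly spread over the chromosomes. On chromosome X 21 of 89 compared anchors were higher and 0 lower, and the share of matched PETs was 0.945% in HCT116 (interval 0.872 to 1.02) and 1.81% in SW620 (1.73 to 1.89). On chromosome 20 38 of 183 were higher and 12 lower, on chromosome 11 57 of 334 and 18, and on chromosome 18 13 of 43 and 3. Chromosome 19 was the reverse, with 16 of 479 higher and 78 lower, and its share was 10.6% in HCT116 and 7.995% in SW620. With rates per 1000000 PETs of the same chromosome the counts were 2 higher and 1 lower on X, 17 and 22 on 20, 27 and 30 on 11 and 48 and 43 on 19. On chromosome 18 they were 13 and 3 under both scales. Shares of self PETs moved in the same direction on X (0.969% in HCT116, 1.70% in SW620), 20 (3.18% and 4.33%) and 19 (9.79% and 8.2%), but on 18 the self share was lower in SW620 (0.974% and 0.710%), as was the share of matched PETs (0.877% and 0.847%). The part of these shares in the calls was not tested.

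**Figure D5:**
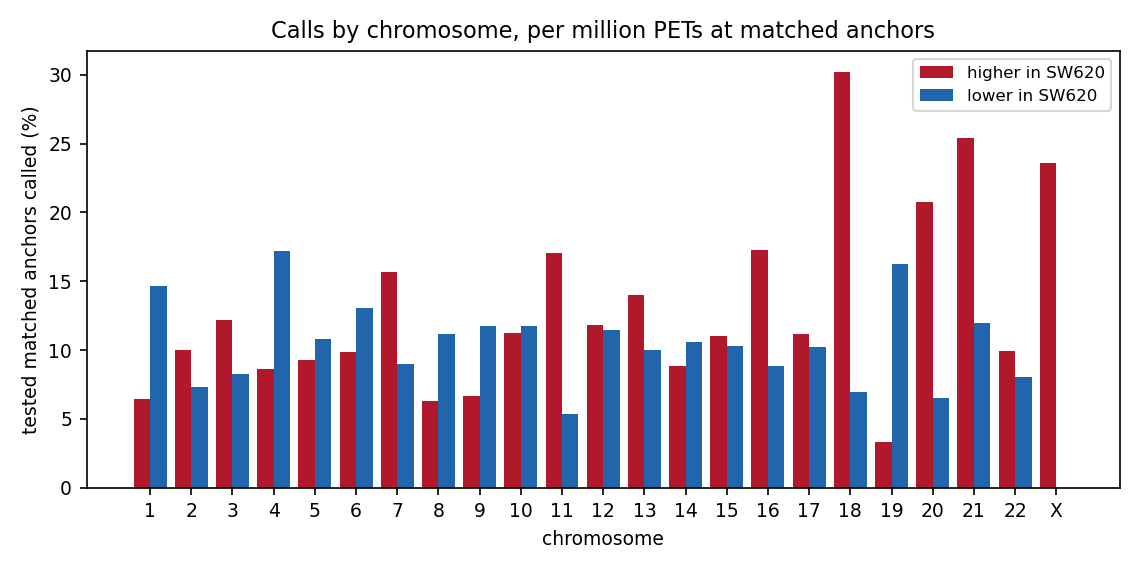
Percent of compared matched anchors called higher (red) or lower (blue) in SW620 on each chromosome, with rates per 1000000 PETs at matched anchors. Chromosomes 18, 21, X and 20 have the highest red bars, X has no blue bar and chromosome 19 has 3.34% higher and 16.3% lower.

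Called anchors also stood in runs. With neighbours no more than 250 kb apart, a setting chosen after the data were seen, 13 runs of at least 4 higher anchors and 20 runs of at least 4 lower anchors were found. The longest higher run, chr16:67045924-68364034, held 15 called of 19 compared anchors and took in CTCF, CBFB, E2F4, NFATC3 and ESRP2, with 299 PETs in HCT116 and 1420 in SW620. All 7 anchors around FOXQ1 were higher (86 and 740 PETs), as were all 5 at AXIN2 (161 and 801), all 5 from SP5 to GORASP2 (24 and 194) and all 5 at COL18A1, a basement membrane collagen gene (30 and 184). Around ELF3 5 of 7 anchors were lower (379 and 278 PETs), around CUX1, a homeobox gene, 5 of 7 (191 and 136), and at IRF2BPL 4 of 4 (195 and 84). Other runs were more mixed, with 5 called of 11 at chr1:1089978-1378990 (higher) and 5 of 14 at chr19:982534-1480890 (lower). Runs were sought among called anchors, so a high share called within them follows in part from their definition. The number of runs to expect without clustering was not tested. Neighbouring anchors can share loops, so the members of a run are not separate measurements.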

How the data were processed

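H3K27ac HiChIP of untreated HCT116 and SW620 cells, 1 library per line, was analysed from the deposited loop tables. Cells were fixed with formaldehyde, chromatin was cut with MboI and ligated in situ, and libraries were made with Tn5, per the labels' protocols. HiC-Pro and hg19 (GRCh37) are named in the submitters' processing notes; a set of the deposited tables is named for Mango, a loop caller, and its version, settings and the loop filters are not stated in those notes. The authors deposited whole-number PET counts per pair of anchors, not normalized, for filtered loops, all pairs within a chromosome and pairs between chromosomes. A further column without a header, read as the authors' adjusted p-value (FDR), was used only for an alternative. The filtered loops of LS513 and SW480 served to count anchors.

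Anchors were matched 1 to 1 at 50% overlap both ways. Rates are per 1000000 PETs in loops with at least 1 matched anchor, or with both ends matched for single loops. Ratios have conditional Clopper-Pearson 95% intervals, which cover counting error only, since each line has 1 library. The labels name no molecular identifiers. Calls needed a 2-fold ratio, an interval without 1 and 10 PETs in the higher line. A 0 is set at 3 counts in a fold. No test across replicates was possible. Partners at equal depth, meaning equal numbers of filtered PETs at matched anchors, used exact hypergeometric rarefaction. Spans are PET-weighted medians between anchor midpoints. Filtered PETs numbered 81579 in HCT116 and 152421 in SW620, and all PETs within a chromosome, self pairs included, 956460 and 1016377. The scripts were tested on simulated data and were run with scipy 1.17.1, pandas 2.3.3 and numpy 2.4.6 under Python 3.11.15; matplotlib 3.10.9 drew the figures.

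No hg19 annotation was used. Gene positions in hg19 were written from general knowledge, and kept where their displacement from the GRCh38.p14 gene table was shared within 10 kb by a neighbouring gene up to 20 Mb away: 157 of 167 listed genes and 104 of 106 genes at named anchors passed. The second set, the genes used as neighbours and the 20 Mb window were chosen after the named anchors or a first check were seen. Named anchors were the 10 in each direction with the most extreme interval bound, at most 1 per Mb. Named loops were the 6 in each direction by the same bound, anchors for partners and span the 5 in each direction with at least 20 PETs in both lines, and listed genes all those called and up to 3 per list not called; a few further listed genes were named after their values were seen. Members and lists were chosen with earlier results of these data known. Alternatives were another overlap, loop minimum, FDR filter, scale, fold, PET minimum, weighting and gene distance.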

Additional observations from a re-analysis of the deposited data

Results flagged for a closer look

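Pairs between chromosomes were outside the comparisons above. In HCT116 the pair of matched anchors with most PETs between chromosomes joined chr1:213186063-213190047 and chr19:59050356-59058097 with 13 PETs, beside 2 in SW620 and above the 3 that a count of 0 allows. In SW620 the corresponding pair joined the anchor of KRT8 (chr12:53296000-53324808) and chr15:71144749-71150179 with 11 PETs, beside 0 in HCT116. Pairs of matched anchors on different chromosomes numbered 10201 in HCT116 and 16263 in SW620, of which 3 and 9 had over 3 PETs. Their cause was not tested.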

How the results depend on the processing

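Anchors higher and lower in SW620 numbered 574 and 543. They were 1142 and 988 with an overlap of at least 1 bp, 252 and 197 with 80% both ways, 289 and 287 with loops of an FDR under 0.01, and 270 and 271 with both anchors matched. With a minimum of 20 PETs they were 474 and 278. Lower outnumbered higher with rates scaled to all filtered PETs (476 higher and 633 lower) and to the same chromosome (515 and 530). Loops higher and lower, 126 and 85, were 441 and 228 at 1 bp, 23 and 15 at 80%, and 193 and 75 with the FDR filter. Anchors with 2-fold more and fewer partners, 75 and 155, were 128 and 263 at 1 bp, 26 and 55 at 80%, and 36 and 67 over matched partners. More outnumbered fewer with loops of at least 2 PETs (228 and 72) and with the FDR filter (153 and 69). Anchors with longer and shorter spans, 338 and 341, were 153 and 152 at 80%, 221 and 163 with loops of at least 2 PETs, 92 and 81 with the FDR filter, 114 and 113 with at least 20 PETs in both lines, and 417 and 219 with each loop counted once. Listed promoters higher in SW620 numbered 8 with both anchors matched, an alternative chosen after the data were seen. The overlap, PET and loop filters changed the number of anchors compared; otherwise the cause was not tested. For the 20 named anchors, 115 values could be had under 8 alternatives, and 108 kept the call. Most of these could hardly have lost it, because the 1 bp overlap and the changes of scale moved the ratios by less than their distance from 2-fold. The 7 values not called all had both anchors matched, as had 6 more with both lines at or under 3 PETs. By that count 8 of the 10 higher and 5 of the 10 lower named anchors were not called. A further 39 values were missing for want of a match. No paired analysis was possible because each line has 1 library, and leaving out a replicate could not be run. Depth limits single anchors, whose medians were 6 and 10 PETs.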

Other observations

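Anchors without any overlap in the other line numbered 5486 in HCT116 (29.7%) and 9470 in SW620 (42.6%). In HCT116 the deepest was chr9:132352765-132377639, with 227 PETs, and in SW620 chr16:1293154-1298590, with 219 PETs but only 18 self PETs. An anchor near the start of ERRFI1, chr1:8099427-8124814, held 163 PETs in HCT116 and was not overlapped in SW620, and the anchor in TRIP13 that was the leading partner of the anchor near NKD2 held 152 PETs in SW620 and was not overlapped in HCT116.

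Some listed promoters could not enter the comparison. Of the 157 genes 32 had anchors in both lines that were not matched, 11 had one in HCT116 only, 9 in SW620 only and 15 in neither. The start of NKD1 had an anchor of 6306 bp with 9 PETs in HCT116 and one of 34520 bp with 422 PETs in SW620. FOSL1, an AP-1 gene, had anchors of 7567 and 28475 bp with 39 and 159 PETs, and PHLDA1 of 7422 and 20307 bp with 16 and 116 PETs. Anchors in HCT116 only were found at KRT19 (145 PETs over 2 anchors), MYC (76), a WNT target, EGFR (18) and GRHL2 (11). Anchors in SW620 only were found at IGF2 (160 PETs), RNF43 (60), a WNT feedback gene, TFF3 (29) and TFF1 (24), both trefoil factor genes. These counts are per anchor and were not scaled or compared.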
